A study of Mus musculus with 4 samples.

Results

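The Ifi200 cluster is a run of related genes on the distal part of mouse chromosome 1, among them genes for interferon-inducible DNA sensors. Its members here were 10 genes chosen by name: Aim2, Ifi203, Ifi204, Ifi205, Ifi207, Ifi208, Ifi209, Ifi213, Mnda and Mndal. All 10 were found in the annotation, Mnda under its current symbol Ifi211. The interval examined ran from the first to the last of them with 20 kb on each side, at chr1:173330879-174051810 of mm10, and was 721 kb long. It held 212 ATAC-seq peaks in 4 lists, which merged into 67 of the 71243 regions of the whole data set. Of the 25 annotated genes that touch it, 17 are protein-coding and 13 of these belong to the same family, the other 3 being Ifi206, Ifi214 and Ifi202b.

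ATAC-seq cuts and tags DNA with the Tn5 transposase where chromatin is open. The libraries came from bone marrow-derived macrophages (BMDMs), with no treatment named in the labels, grown for 6 to 8 days in medium conditioned by L929 cells from the marrow of C57BL/6 mice aged 8 to 10 weeks. The WT group carried floxed alleles of both genes for histone variant H3.3 (H3f3a fl/fl and H3f3b fl/fl), and the H3.3cKO group carried the same alleles with LysM cre/cre, a Cre driven from the Lyz2 locus that deletes them in myeloid cells, with H3f3b deletion that the study described as variable. Each genotype had 2 libraries, labelled as biological replicates. H3f3a lies 6.75 Mb distal to the interval, so the floxed allele is linked to the cluster in both genotypes.

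Many proteins of this family (PYHIN) join a pyrin domain, which binds other pyrin domains, to HIN-200 domains, which bind double-stranded DNA. Not every member carries both kinds of domain. Aim2 recognises DNA in the cytosol and assembles an inflammasome with the adaptor Pycard and caspase-1, and Ifi204, often likened to human IFI16, is linked to type I interferon production through STING. Many of the genes are themselves induced by interferon through the interferon-stimulated response element (ISRE), a pair of GAAA boxes bound by interferon regulatory factors (IRFs) and complexes that contain them.

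The promoters of the family carried a shared ISRE, and the stretches around it are shown because the genes whose promoters stood out in cKO share it with genes whose promoters did not. The motif searched was GAAANNGAAA on both strands, in the 250 bases before each RefSeq transcription start site. Of the 13 family genes, 12 had an entry in the RefSeq promoter table (GRCm38.p6, the same assembly as mm10), and 9 of these 12 held a match, against 2.98% of 32851 promoters of the genome. Ifi204 had no entry, and Aim2, Ifi209 and Ifi202b had no match in this window. The capitals mark the ISRE or, for Ifi209, the 10 bases aligned to it, and every line reads 5′ to 3′ on the strand of its gene.
Ifi206 (reverse strand, chr1:173491325-173491398): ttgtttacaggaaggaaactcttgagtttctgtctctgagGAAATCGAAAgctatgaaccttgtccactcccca
Ifi213 (reverse strand, chr1:173599312-173599385): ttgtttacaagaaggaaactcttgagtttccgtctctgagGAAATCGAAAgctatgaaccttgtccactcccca
Ifi208 (forward strand, chr1:173673567-173673640): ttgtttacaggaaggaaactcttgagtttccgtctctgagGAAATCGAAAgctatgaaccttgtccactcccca
Ifi205 (reverse strand, chr1:174031856-174031929): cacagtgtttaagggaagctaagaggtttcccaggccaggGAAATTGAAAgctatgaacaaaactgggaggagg
Ifi211 (Mnda, reverse strand, chr1:173913050-173913123): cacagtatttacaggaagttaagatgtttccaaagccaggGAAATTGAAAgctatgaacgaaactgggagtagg
Ifi207 (reverse strand, chr1:173741817-173741890): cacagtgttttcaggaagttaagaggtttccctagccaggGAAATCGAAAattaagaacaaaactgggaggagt
Ifi203 (reverse strand, chr1:173942494-173942567): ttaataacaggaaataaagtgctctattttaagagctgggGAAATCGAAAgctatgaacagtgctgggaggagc
Mndal (reverse strand, chr1:173880204-173880233): aagagctgggGAAATCGAAAgctatgaaca
Ifi214 (reverse strand, chr1:173536003-173536076): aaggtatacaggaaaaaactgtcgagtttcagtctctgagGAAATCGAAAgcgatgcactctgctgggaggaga
Ifi209 (forward strand, chr1:173630740-173630813): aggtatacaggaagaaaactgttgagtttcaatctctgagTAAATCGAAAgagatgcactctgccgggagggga

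Over these 74 bases, Ifi208 shared 73 and Ifi213 shared 72 with Ifi206, whereas Ifi205 and Ifi211 shared 33 and Ifi207 shared 31. At 7 of the 9 genes the ISRE was written with the same 10 bases, and at Ifi205 and Ifi211 it differed at its centre. Ifi209 differed from the ISRE of Ifi214 by G1T, counted from the first base of the ISRE. Over 200 bases before the start sites, identity was taken over all columns of an alignment, with gap columns counted as differences. On this scale the highest pairs were Ifi209 with Ifi214 (94.5%), Ifi203 with Mndal (87.2%) and Ifi207 with Ifi211 (85.3%). Next came Ifi208 with Ifi213 (85.1%) and Ifi206 with Ifi208 (83.0%), against a median of 50.6% over 91 pairs. Start sites lie at different distances from the ISRE, which adds gap columns, so this order does not rank the likeness of the paired bases. Of the 67 regions, 2 had another copy in the genome at 98% identity or more over at least 50% of their length, and neither of these differed between the genotypes by the rules used below.

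Values below are percentiles of the peak area within the list of the same library. The area is the sum of the significance over the peak, which grows with the width of the peak, with its height and with sequencing depth. The depth of the libraries is unknown here. The WT lists held 55742 and 64939 peaks and the cKO lists 51955 and 60884, replicate 2 being the longer for each genotype. A region with a peak in both cKO libraries but in no WT library was called gained, and one with a peak in both WT libraries but in no cKO library was called lost. A region called in all 4 libraries was said to rank higher or lower in cKO where the percentiles of the genotypes did not overlap and their means were at least 10 points apart. The caller kept no peak with an area under about 200, so the absence of a peak does not show closed chromatin.

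The labels were checked first. The region over exon 2 of H3f3a, the exon flanked by loxP sites, was weak in WT, at percentiles 5.02 and 19.1, and was not called in cKO. A second region of H3f3a was called in all 4 libraries, at 96.0 and 97.2 in WT, against 93.4 and 94.1 in cKO. At H3f3b, whose exons are also floxed, peaks remained in cKO: the region at chr11:116023771-116024892 stood at 94.2 and 95.5 in WT, against 87.0 and 81.4 in cKO, and a second region of the gene was called in all 4 libraries. These lists alone therefore do not show that H3f3b was fully deleted. The 5 macrophage promoters (Adgre1, Itgam, Csf1r, Cd68 and Lyz2) were called in all 4 libraries, and that of Cd3e (T cells) in none. The promoter of Ly6g, a granulocyte gene, had peaks in the 2 cKO libraries (17.8 and 30.3) and none in the WT libraries. The part of granulocytes in the results below was not tested.

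The cluster was open in both genotypes, and it held more regions that appeared in cKO than regions that disappeared. Of the 67 regions, 7 were gained (10.4%, against a background of 3.72% of all regions) and 2 were lost (2.99%, against 7.25%). All 4 libraries shared 42 regions (62.7%, against 62.9% of all regions). Among these, 6 ranked higher in cKO (14.3%, against 11.4%) and 4 ranked lower (9.52%, against 18.9%). With percentiles of the area per base, an alternative chosen after seeing the data, 8 ranked higher and 9 lower, so higher regions no longer outnumbered lower ones. Shares over all regions were not computed on that scale. The other 16 regions were called in other combinations, and the 10 seen in 1 library belonged to replicate 2 of cKO in 6 cases and to replicate 2 of WT in 4. Regions of 1 cluster of related genes are not independent of each other, so these shares describe the interval and carry no p-value. Without cKO replicate 1 the gained regions numbered 13 and those ranked higher 14 (14 also without WT replicate 2), and without WT replicate 1 the lost ones numbered 6 and those ranked lower 9 (7 without cKO replicate 2). Leaving out a library loosens the rule for gained and lost regions, so their counts can only stay or rise.

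**Figure D1:**
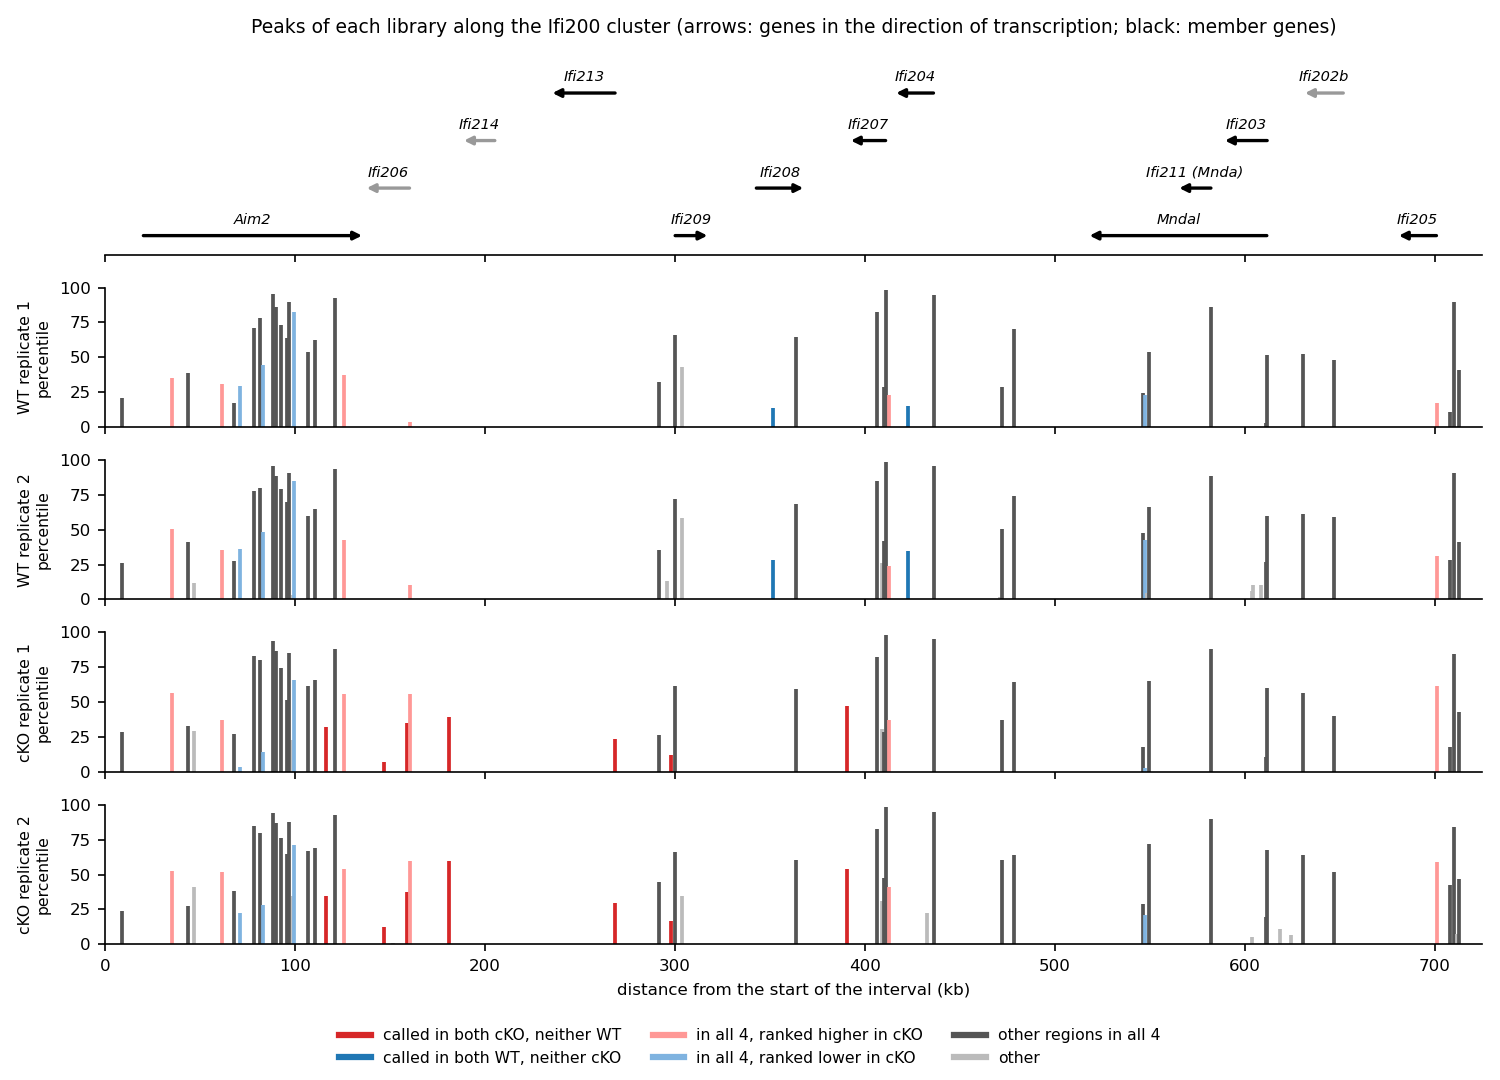
Percentile of the peak area (vertical axis, 0 to 100, highest peak of each region) against the distance from the start of the interval in kb, with 1 panel for each library and the 13 protein-coding family genes as arrows on top. The 7 gained regions (red) lie between 116 and 390 kb, from the end of Aim2 to Ifi207, and the 2 lost regions (blue) lie at 352 kb in Ifi208 and 423 kb in Ifi204.

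Counted over whole libraries, the interval held 45 and 54 peaks in WT (49.5 ± 6.36, SD, n = 2) and 52 and 61 in cKO (56.5 ± 6.36, SD, n = 2). The genotypes thus differed by 7 peaks, less than the 9 between replicates of each (two-sided exact permutation test, p = 0.667, with 0.33 the smallest p that 2 against 2 libraries allow). Peaks covered 23.3 and 27.3 kb in WT, against 26.3 and 31.1 kb in cKO (exact permutation p = 0.667). As a share of its own list, the interval took 0.807 and 0.832 per mille of the peaks in WT, against 1.00 and 1.00 in cKO. These shares did not overlap, and the exact permutation p was the smallest possible for this design. The share was not among the planned results, and no alternative was run for it. Peak widths were much alike, with medians of 428 and 441.5 bp in WT and 426.5 and 437 bp in cKO.

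At the start sites of the family, 3 promoters stood out. Those of Ifi206 and Ifi205 ranked far higher in cKO and that of Ifi213 was gained, whereas the promoters of Ifi207, Ifi204, Ifi211 (Mnda) and Aim2 were strong in both genotypes. A region lay over the start site of 10 of the 13 genes, and it was called in all 4 libraries at 9. No peak was called at the start sites of Ifi208, Ifi214 and Ifi202b in any library, although the first 2 of these hold the ISRE.

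Ifi206, a family gene between Aim2 and Ifi214, had the largest rank difference of the interval. Its promoter region (chr1:173491043-173491441) stood at percentiles 3.54 and 10.3 in WT, against 56.2 and 59.6 in cKO. The mean difference was 51.0 points, and 43 of the 44820 regions called in all 4 libraries (0.0959%) differed by as much in that direction. Peak width grew less, from 307 and 326 bp in WT to 399 and 399 bp in cKO, and the area per base went from 0.711 and 0.791 to 1.81 and 2.05. When all lists were cut to the length of the shortest, the WT peaks dropped out and the region counted as gained. The ISRE shown above lay inside this region.

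Within the body of Ifi206, 2 more regions were gained. An intronic region at chr1:173489450-173489891 was at 35.1 and 37.3 in cKO, with widths of 437 bp in both libraries. Its centre lay 1371 bp downstream of the GENCODE start site, which is not the RefSeq start site used for the ISRE. A weaker intronic one, at chr1:173477560-173477987, was at 7.09 and 12.7, and it was no longer gained in lists of equal length. Together with a peak of cKO replicate 2 at percentile 0.782, these were all the regions of the gene, so no peak of WT other than the 2 weak ones at the promoter lay within 2 kb of it. In addition, a gained region between Ifi206 and Ifi214 (chr1:173511648-173512000), outside any gene, was at 39.3 and 60.04 in cKO, the highest percentile reached by a gained region of the cluster.

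Ifi205 lies at the other end of the cluster and is the second gene with a large rank difference. Its promoter region (chr1:174031712-174032182) stood at 17.0 and 31.3 in WT, against 61.3 and 58.8 in cKO. The difference of 35.9 points was matched or passed by 278 of 44820 regions (0.620%). The WT peaks were narrower, at 250 and 360 bp, than the cKO peaks, at 470 and 466 bp. Area per base was 1.20 and 1.18 in WT, against 1.76 and 1.72 in cKO, so that the genotypes did not overlap on this scale either. It was the only region within 2 kb of the gene, and it held the ISRE with the centre shared with Ifi211.

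Ifi213 had a single region, over its promoter (chr1:173598859-173599437), and it was gained. It reached 23.8 and 29.3 in cKO, with widths of 372 and 579 bp. Its ISRE stretch is nearly that of Ifi206, as shown above, and so is that of Ifi208, where no peak was called at the start site in any of the 4 libraries. Over 200 bases before the start sites, 164 of 233 alignment columns matched between the promoters of Ifi213 and Ifi206 (70.4%). Between those of Ifi213 and Ifi208, 183 of 215 matched (85.1%). The ISRE lies 73 bases before the start site at Ifi213, 58 at Ifi208 and 40 at Ifi206. Gap columns from such offsets count as differences, so these shares understate the likeness of the paired bases. Reads from such near-identical stretches can be hard to place, and how the alignment treated them is not given in the sources used here; their part in these calls was not tested.

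**Figure D2:**
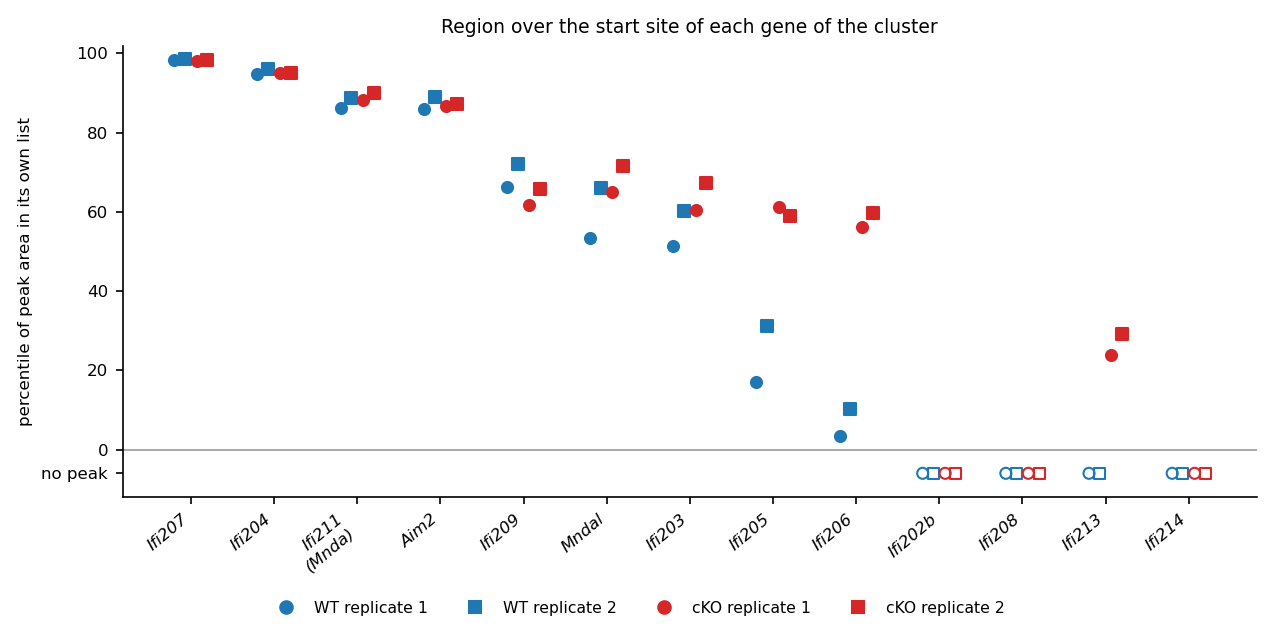
Percentile of the peak area within its own list (vertical axis) of the region over the start site of each family gene, for WT (blue) and cKO (red) with replicate 1 as circles and replicate 2 as squares; open symbols mark libraries with no peak. The genes are ordered by the WT mean, and the separation between the colours is widest at Ifi205 and Ifi206, with Ifi213 called in cKO alone.

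The strongest promoters of the cluster showed little difference. Ifi207, whose promoter region was the widest (1987 bp), stood at 98.3 and 98.6 in WT, against 97.99 and 98.4 in cKO. Ifi204 stood at 94.9 and 96.1 against 95.1 and 95.1, and Ifi211 (Mnda) at 86.3 and 88.9 against 88.2 and 90.03. The region over the RefSeq start site of Aim2 (chr1:173420164-173420838), which lies inside the longer GENCODE transcript, was at 85.9 and 88.9 in WT, against 86.8 and 87.3 in cKO. For these 4 genes the means differed by -0.224, -0.401, 1.57 and -0.382 points in that order, at each gene less than the gap between the 2 WT libraries. Percentiles near 100 leave little room upward, and on the scale of area per base the same 4 promoters took 2.40 to 3.54 in WT and 2.07 to 3.11 in cKO.

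Mid-ranked promoters lay between. Mndal stood at 53.5 and 66.1 in WT, against 65.0 and 71.7 in cKO, and Ifi203 at 51.4 and 60.2 against 60.4 and 67.3. Their means were 8.54 and 8.03 points higher in cKO; at Mndal the genotypes overlapped, and at Ifi203 the nearest libraries stood at 60.2 and 60.4. Ifi209, whose copy of the ISRE differs at the first base, stood at 66.3 and 72.1 in WT, against 61.7 and 65.9 in cKO, a difference of -5.46 points.

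Aim2 was the member with the most regions, and it gained 1 and lost none. Its longer transcript (chr1:173350879-173466040) starts far upstream of the shorter one and crosses several long introns, and 21 regions lay within 2 kb of it. Of these, 12 were called in all 4 libraries with no rank shift by the rule, 3 ranked higher, 3 ranked lower, 1 was gained and 2 had mixed calls. The gained region, in an intron at chr1:173447108-173447454, stood at 31.9 and 34.8 in cKO. A region 1134 bp downstream of the start of the shorter transcript (chr1:173456231-173456746) ranked higher, at 37.3 and 42.9 in WT, against 55.6 and 54.3 in cKO.

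The most open stretch of Aim2 lay around its RefSeq start site. Between chr1:173409026 and 173427873, 7 regions were called in all 4 libraries with no rank shift, at percentiles from 51.8 to 95.9. An intronic region just downstream (chr1:173430115-173430817) ranked lower in cKO, at 82.6 and 84.7 in WT, against 66.2 and 71.0 in cKO, and this was the only one of the 19 regions that differed in the interval to keep its call under every alternative that rebuilt the regions. In an intron upstream of the RefSeq start site, the region at chr1:173413760-173414099 went from 44.8 and 48.6 to 14.0 and 28.4, and that at chr1:173401446-173401746 from 29.5 and 36.0 to 3.58 and 22.7. In the other direction, 2 regions farther upstream in the long transcript ranked higher by narrow margins. The first (chr1:173365931-173366403) also lies in Cadm3, a cell adhesion gene, and stood at 35.4 and 50.7 in WT, against 56.6 and 52.9 in cKO, and the second (chr1:173391839-173392269) stood at 30.9 and 35.3 against 37.5 and 51.8.

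Ifi207 gained a region just beyond its 3′ end, at chr1:173720845-173721893. This was the widest gained region, at 991 and 1043 bp, and it stood at 47.1 and 54.0 in cKO. Upstream of the promoter, a region at chr1:173743204-173743672 ranked higher, from 23.1 and 23.9 in WT to 37.5 and 41.0 in cKO. There the peaks were wider in cKO (428 and 459 bp) than in WT (223 and 218 bp), and with percentiles of the area per base the difference turned to -30.5 points. Ifi207 also had an intronic region at 82.2 and 84.8 in WT, against 82.7 and 82.6 in cKO.

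The 2 lost regions were weak and lay in introns of Ifi208 and Ifi204. That of Ifi208 (chr1:173682295-173682571) stood at 13.5 and 28.2 in WT, with widths of 237 and 277 bp. That of Ifi204 (chr1:173753469-173753751) stood at 15.4 and 34.8, with widths of 263 and 283 bp. Ifi208 kept a second intronic region in both genotypes, at 64.4 and 68.2 in WT, against 59.3 and 60.2 in cKO. Of the remaining members, Mndal had 1 region that ranked lower (chr1:173878090-173878602, from 22.7 and 42.4 to 2.63 and 20.8), and its body overlaps those of Ifi211 and Ifi203, so that some of their regions also count for Mndal.

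Counted by gene, 3 of the 10 members had a gained region within 2 kb (Aim2, Ifi213 and Ifi207), against 8.69% of the 14920 protein-coding genes that had any region. A lost region was found at 2 of the 10 (Ifi208 and Ifi204), against 17.2%. Ifi203, Ifi205, Ifi209, Mnda and Mndal had neither. Ifi209 came closest, with a gained region centred 2335 bp upstream of its GENCODE start site (chr1:173628441-173628724), at 11.7 and 16.5 in cKO, just outside the limit used. With 10 kb around the genes, or with the nearest start site, 4 members had a gained region and 2 a lost one, and without WT replicate 1 the members with a lost region numbered 4. Among non-members, Ifi206 was the only family gene with a gained region within 2 kb.

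**Figure D3:**
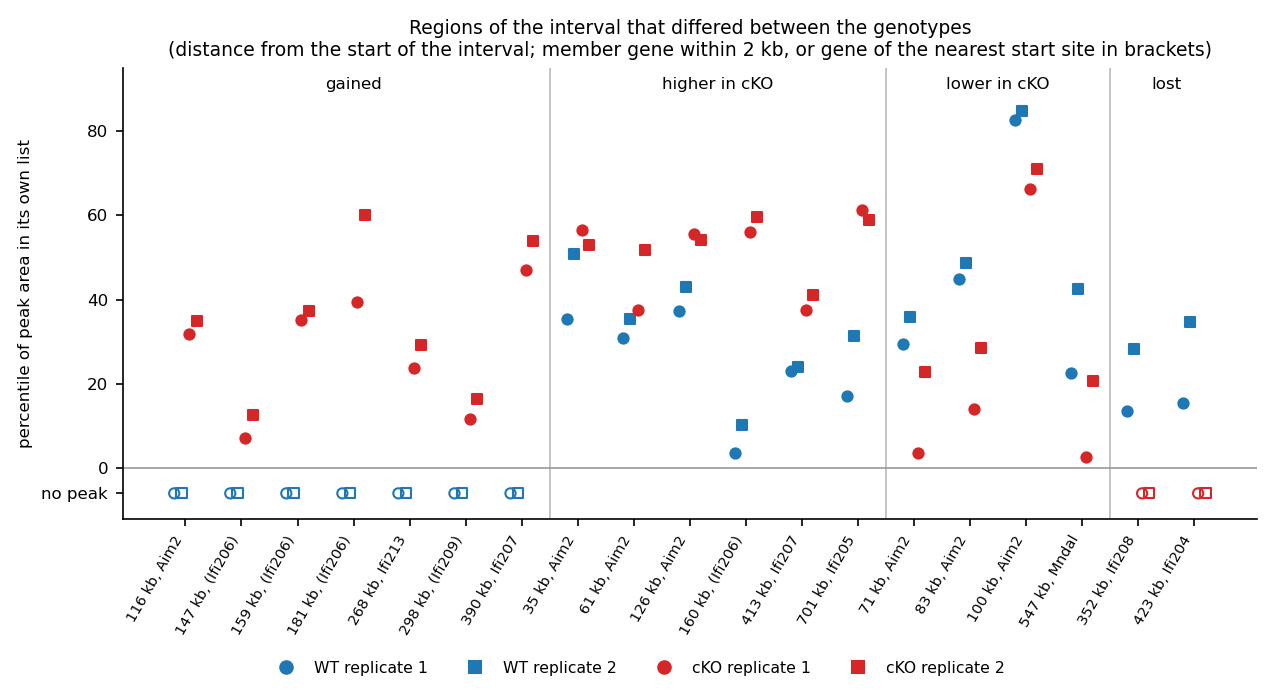
The 19 regions of the interval that differed between the genotypes, with the percentile of the peak area within its own list (vertical axis) for WT (blue) and cKO (red), replicate 1 as circles and replicate 2 as squares, and open symbols where no peak was called. The gained regions reach 7.09 to 60.04 in cKO, and the lost regions reach 13.5 to 34.8 in WT.

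Of the 7 gained regions, 1 was centred in a promoter (14.3%, against 14.9% of the 67 regions of the interval), 3 in introns and 3 between genes, and both lost ones were in introns. The gained regions ranged from 284 to 1049 bp in width, against a median of 309 bp for all 2653 gained regions of the data set. The median of their mean percentiles was 33.4, against 19.0 for all gained regions. For the 2 lost regions it was 22.97, against 19.8 for all lost regions. From the intronic region of Ifi206 to the region upstream of Ifi209, 151 kb held 9 regions, of which 5 were gained, 1 ranked higher, 2 had mixed calls and 1 was called in all 4 libraries with no rank shift; these ends were chosen after the values were seen.

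**Figure D4:**
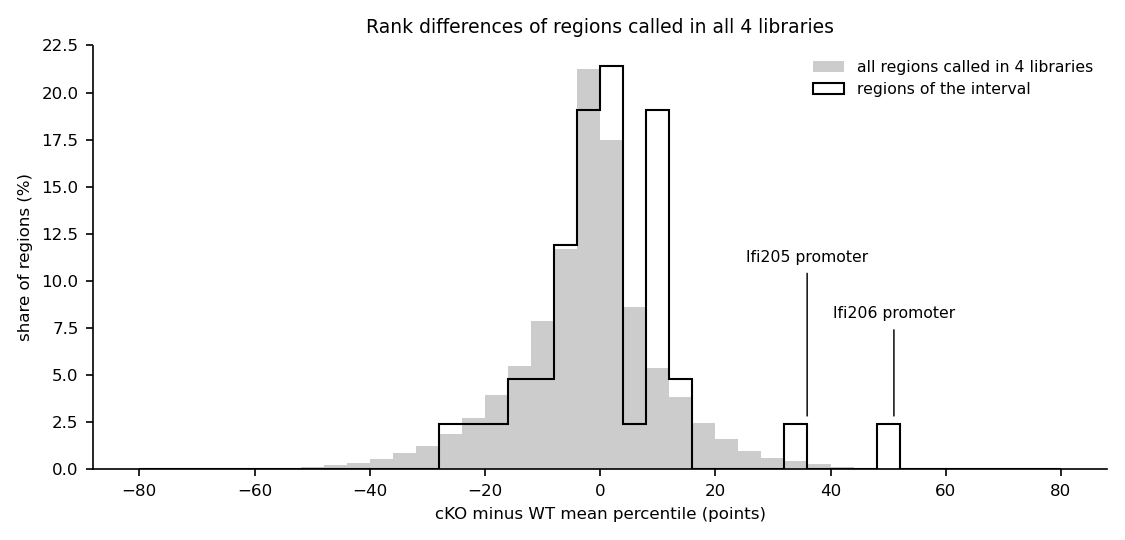
Share of regions in percent (vertical axis) against the cKO minus WT difference of the mean percentile in points (horizontal axis, bins of 4 points), for all 44820 regions called in 4 libraries (grey) and the 42 of the interval (line). The bulk of both lies near 0, and the promoters of Ifi205 and Ifi206 lie apart at 35.9 and 51.0 points.

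The regions shared by all 4 libraries showed no common shift beyond the spread between replicates. Their median percentile was 51.8 and 59.9 in WT, against 57.9 and 62.4 in cKO (exact permutation p = 0.667). The cKO mean was above the WT mean at 22 of 42 regions, or 52.4%, against 41.9% of all such regions. The median difference was 0.594 points, against -1.10 over the genome, and single regions ran from -25.5 to 51.0 points. At 29 of the 42 the means lay under 10 points apart. Just inside the limit, the Aim2 region at chr1:173391839-173392269 differed by 11.5 points. Just outside the limit, another intronic region of Aim2 (chr1:173409026-173409578) differed by 9.87, from 70.9 and 77.5 to 83.0 and 85.1. A further 3 regions differed by more than 10 points with libraries that overlapped.

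Motifs were counted within 100 bases of the summit of each region, on both strands. The ISRE was found at 13 of the 67 regions (19.4%), against 3.90% of all regions, and none of its 13 matches overlapped one of the other motifs. Of the 13, 1 was gained (the Ifi213 promoter), 3 ranked higher (the promoters of Ifi206 and Ifi205 and a region in Aim2), 2 ranked lower (both in Aim2), and the others, among them the promoters of Ifi207, Ifi204 and Ifi211, were called in all 4 libraries with no rank shift. The motif thus occurred at regions gained, ranked higher, ranked lower and not shifted, and at none of the lost or mixed ones. Of the others, GAS (TTCNNNGAA, the gamma-activated site) was found at 8 regions (11.9%, against 6.10%), PU.1 (AGGAAGT) at 20 (29.9%, against 24.7%) and C/EBP (TTGCNNAA) at 9 (13.4%, against 12.3%).

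AP-1 (TGANTCA) was found at 13 of the 67 regions (19.4%, against 16.7%), and at 2 of the 7 gained ones (28.6%, against 27.0% of all gained regions). Neither is a promoter, and both are shown with AP-1 in capitals, on the forward strand of GRCm38.p6, because they are the gained regions of the Ifi206 body and of the Ifi209 upstream side that hold it.
Ifi206 intron (chr1:173489636-173489836): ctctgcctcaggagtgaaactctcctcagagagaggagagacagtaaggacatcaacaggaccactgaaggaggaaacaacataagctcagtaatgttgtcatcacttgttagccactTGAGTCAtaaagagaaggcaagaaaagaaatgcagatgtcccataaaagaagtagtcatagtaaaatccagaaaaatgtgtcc
Upstream of Ifi209 (chr1:173628466-173628666): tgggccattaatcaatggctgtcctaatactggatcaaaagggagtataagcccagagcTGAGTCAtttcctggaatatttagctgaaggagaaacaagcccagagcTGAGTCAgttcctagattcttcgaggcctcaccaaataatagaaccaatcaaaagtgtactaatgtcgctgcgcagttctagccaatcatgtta

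At the partners of these sensors, the shares of gained and lost regions lay near or below those of the whole data set, apart from genes with a gained region. Of 28 genes of the inflammasome, of nucleic acid sensing and of interferon signalling, 27 had a region within 2 kb, 3 had a gained one (11.1%, against 8.69% of all genes with a region) and 4 a lost one (14.8%, against 17.2%). The gained regions were at Zbp1 (2 regions), a sensor of Z-form nucleic acid, at Ddx58, the RNA sensor RIG-I, and at Jak1, the kinase of the interferon receptors. The lost ones were at Nlrc4, an inflammasome sensor, at the interferon receptor gene Ifnar2 (2 regions), at the transcription factor gene Irf1 and at Jak1. The stronger gained region of Zbp1 (chr2:173217508-173218208) reached 15.6 and 43.5 in cKO, and the lost region of Nlrc4 (chr17:74430466-74430958) stood at 39.6 and 45.1 in WT. Over the 109 regions of the list, 4 were gained (3.67%, against 3.72% of all regions) and 5 lost (4.59%, against 7.25%). At Pycard and Casp1, the partners of Aim2, none of the 3 regions of each gene was gained or lost.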

How the data were processed

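ATAC-seq was deposited for 2 WT and 2 cKO libraries of BMDMs. The authors aligned paired reads to mm10 with Bowtie2 2.5.1 and called peaks in each library with Genrich at default settings. The deposited signal value of a peak is the area under its significance curve, and the deposited −log10 p-value holds the value at the summit and was not used for calls. The q-value column was empty (−1). Read filters, removal of duplicates and shifts of read ends are not given in the sources used here. The study compared reads with DiffBind, and only peak lists were analysed here, so depth is unknown and no interval for counting error can be given.

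Overlapping peaks (1 bp or more) were joined into regions in Python (pandas 2.3.3, numpy 2.4.6), and areas were turned into percentiles within their list. Genes were those of GENCODE M21 (basic set) and counted with 2 kb on both sides, and promoters ran from 1 kb upstream to 100 bp downstream of a start site. Libraries were compared by two-sided exact permutation tests (scipy 1.17.1), and whether p-values measure more than technical spread depends on the labels' word that replicates are biological. Sequences came from RefSeq, GRCm38.p6 (20 of 20 chromosomes held, with 0 peaks beyond their ends), and second copies were sought with blastn 2.17.0 at 98% identity. Steps were tested on simulated peak lists. The genes and regions named are all members, all family genes of the interval, every region gained, lost or ranked higher or lower there, and the pathway genes with such gained or lost regions; other regions were added after their values were seen, and results for 3 genes of the pathway and marker lists are not reported here. Members, lists and rules were chosen with earlier results of these data known. Alternatives were stricter peaks, lists of equal length, each library left out, the replicate number as a block, cover of at least 50% of a region, summit windows, other gene windows, no minimum difference, removal of regions with a second copy and, added after seeing the data, percentiles of the area per base.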

Additional observations from a re-analysis of the deposited data

How the results depend on the processing

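The count of peaks and the covered length kept their direction under every alternative run for them. The counts of members with a gained region stayed between 2 and 4, though not always with the same genes. With peaks above the median area of their list only, 3 regions were gained, 0 lost, 0 ranked higher and 1 lower, 0 members had a lost region, and the median percentile of shared regions differed by -0.0092 points in place of 4.30. None of the 7 gained regions kept its call there. The 3 had ranked higher in the main setting: the promoters of Ifi206 and Ifi205 and the Aim2 region at chr1:173456231-173456746. Their WT peaks lay below the median and their cKO peaks above it. The 2 members with a gained region were thus Aim2 and Ifi205, not Aim2, Ifi213 and Ifi207. Fewer peaks enter each list there by construction, since most regions that differed lie below the median. Lists of equal length gave 11 regions ranked higher, and dropping the minimum difference gave 11 higher and 11 lower. Percentiles of the area per base gave 8 ranked higher and 9 lower and reversed the region upstream of Ifi207 to -30.5 points, and the cause was not tested. Leaving out each library gave 7 to 13 gained and 2 to 6 lost regions, 5 to 14 ranked higher and 4 to 9 lower, 3 to 4 members with a gained and 2 to 4 with a lost region, a difference of 2.5 to 11.5 peaks and of 0.986 to 5.85 kb, and a difference of the median percentile from -1.20 to 8.35 points. The reversal came without WT replicate 1, which also gave the 6 lost regions, 9 ranked lower and 4 members with a lost one. The 13 gained regions came without cKO replicate 1, the 14 ranked higher without either WT replicate 2 or cKO replicate 1, and 7 ranked lower without cKO replicate 2. Fewer libraries decide a call when a library is left out. The counts of gained and lost regions, and of members with them, could therefore only stay or rise.

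The replicate numbers are not stated to pair libraries, and replicate 2 had 9 more peaks of the interval than replicate 1 in both genotypes. With the number as a block, the mean of the 2 within-number values was 7 peaks, 3.42 kb, 4.30 percentile points, 11.5 gained and 4.5 lost regions, 8.5 ranked higher and 7 lower, and 3.5 members with a gained and 3.5 with a lost region. Within a number, 1 library of each genotype decides a call, so here too the gained and lost counts could only stay or rise. A block of 2 pairs cannot give an exact p below 0.5. Under the alternatives that rebuild regions, 1 of the 19 regions that differed kept its call in all (in Aim2). Of the others, 13 lost it only with the stricter peaks and 5 under another alternative as well. With the stricter peaks, that Aim2 region alone had every deciding peak above the median, and 3 regions that ranked higher became gained. Some of these alternatives could not remove a call. Leaving out a library cannot undo a gained or lost call, since the rule then asks for fewer libraries. Removing regions with a second copy could change none of the 19, since no region with a copy was among them.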
